A study of Mus musculus with 20 samples.

Results

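Hemoglobin is a tetramer of alpha-globin and beta-globin chains, each holding a heme group that binds oxygen. In adult mice it is made by erythroid precursors of the bone marrow and spleen, and young red cells still carry globin mRNA into the blood. An adult liver therefore gives globin signal through the blood it holds, through erythroid cells lodged in it and through other cells that make some globin. The members described here are globin and erythroid genes: Hba-a1, Hba-a2 and Hbb-b1, which encode globin chains, Alas2, the erythroid enzyme of the first step of heme synthesis, and Ahsp, a chaperone of free alpha-globin. Members were those that the array's annotation names by symbol. It named 3 of the 5, Hba-a1, Hbb-b1 and Alas2, each through 1 probe, out of 11647 named genes among 21556 features measured. Hba-a2 and Ahsp were not analysed here.

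Livers came from 20 gonadectomized C57BL/6J mice of the core genotypes cross, each hybridised on its own array against a common liver pool. The Y chromosome of this cross lacks the testis-determining gene Sry (Y-), and gonadal males carry Sry as an autosomal transgene. The 4 groups of 5 animals were XX Sry (XX gonadal males), XX (XX gonadal females), XY-Sry (XY gonadal males) and XY- (XY gonadal females). Every mouse was gonadectomized at 8 weeks of age and sampled at 12 weeks, on a chow diet (4% fat) and fasted for 12 h, so that gonadal type here means gonads carried until 8 weeks, with or without the transgene, and no group had gonads at the time of sampling. Animal numbers all differed, and nothing paired the groups. A positive log2 ratio means more signal in the liver than in the pool. Ratios of different genes are not compared as levels.

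Over all probes, the spread of ratios on an array (SD) lay between 0.17 and 0.34 on the log2 scale and was above 0.3 on 4 arrays, XX 6, XX 2, XY- 12 and XY- 3. Correlations between arrays over all features lay between -0.54 and 0.68. The library labelled XY- 30 gave a log2 ratio of -3.90 for the Y-linked gene Eif2s3y, whereas the 10 XX livers lay between -5.28 and -2.46 and the other 9 XY livers between 0.57 and 1.34. This library went against its label, so differences of the members that rest on the XY- group are given with and without it. Differences of other genes include it unless stated. Hepatocyte, immune and erythroid marker lists all had measured members, but a ratio to a pool of the same tissue does not show whether a marker is absent.

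The genes were placed on assembly GRCm38.p6. Hba-a1 lies on the forward strand of chromosome 11 (chr11:32283672-32284486) and Alas2 on the forward strand of chromosome X (chrX:150547417-150570622). Hbb-b1 belongs to the beta-globin cluster on chromosome 7. The 250 bases before the start of both placed genes, from RefSeq on GRCm38.p6, are shown. An alpha-globin gene and an erythroid heme enzyme are classic targets of GATA1, the master factor of red cell development. Whether any marked stretch bears on the values of these genes was not tested. Capitals mark matches, on either strand, to AGATAA or TGATAA (forms bound by GATA factors) and to CCAAT (bound by NF-Y). They also mark CCNCNCCC, a longer form of the CACCC box, which KLF1 and related factors bind. Bare CACCC stretches, which the Hba-a1 window holds in lower case, were not marked.
Hba-a1, chr11:32283422-32283671: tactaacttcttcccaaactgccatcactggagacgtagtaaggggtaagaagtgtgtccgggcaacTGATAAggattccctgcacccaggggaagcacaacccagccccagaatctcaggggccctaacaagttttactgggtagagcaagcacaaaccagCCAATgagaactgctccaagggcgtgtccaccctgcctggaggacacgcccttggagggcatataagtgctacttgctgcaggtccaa
Alas2, chrX:150547167-150547416: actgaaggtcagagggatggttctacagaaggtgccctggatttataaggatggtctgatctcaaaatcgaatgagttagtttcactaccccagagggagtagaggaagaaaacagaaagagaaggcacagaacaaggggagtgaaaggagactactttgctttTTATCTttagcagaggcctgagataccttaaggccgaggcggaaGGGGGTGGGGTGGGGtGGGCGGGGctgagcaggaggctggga

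The Hba-a1 window held TGATAA from 183 to 178 bases before the start and CCAAT from 88 to 84 bases before it. The Alas2 window held AGATAA on the reverse strand, read as TTATCT, from 86 to 81 bases before the start. It also held 4 reverse-strand CCNCNCCC matches, some overlapping, between 42 and 19 bases before the start. Among 32851 windows of the same length, 16.6% held AGATAA or TGATAA, 33.8% CCAAT and 45.9% CCNCNCCC. Windows of Hba-a1 and Hba-a2 on this assembly (300 bases each, reaching past the start) shared a run of 297 identical bases. The alpha-globin genes are near-identical copies, as are the adult beta-globin genes, and whether the Hba-a1 and Hbb-b1 probes separate each from its copy was not tested. C57BL/6J mice carry the beta-globin genes named Hbb-bs and Hbb-bt, so the probes named Hbb-b1 and Hbb-b2 are read here as beta-globin signal of either copy.

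Alpha-globin signal was lower in livers of gonadal males than of gonadal females. Among gonadal males, Hba-a1 had log2 ratios of -0.43, 0.02, -0.58, -0.47 and -0.39 in XX Sry livers 38, 18, 9, 31 and 32. The values in XY-Sry livers 19, 27, 20, 5 and 14 were -0.40, -0.11, 0.07, -0.15 and -0.18. Among gonadal females, Hba-a1 had 0.11, -0.18, 0.30, 0.31 and 0.58 in XX livers 29, 6, 21, 35 and 2. XY- livers 12, 30, 24, 3 and 22 had 1.06, -0.14, 0.19, 0.32 and 0.42. The groups overlapped: 8 of 10 gonadal females stood above every gonadal male, and XX 6 and XY- 30 lay among the gonadal males. The highest liver was XY- 12, and the lowest was XX Sry 9.

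Hba-a1 averaged -0.26 ± 0.22 in gonadal males and 0.30 ± 0.36 in gonadal females (SD of log2 ratios, n = 10 each). The difference, gonadal males minus gonadal females, was -0.56 ± 0.13 (SE) on the log2 scale, which is 1.47-fold lower in gonadal males (95% confidence interval 1.23-fold to 1.77-fold lower), and it passed limma's test with an adjusted p of 0.0185 over all features. Hba-a1 was the only called member of 3, against 3.75% of all features called for gonadal type in either direction and 2.28% called lower. At an unadjusted p under 0.05 it was Hba-a1 and Hbb-b1, against 17.8% of all features. In each of 20 fits that left out 1 animal it passed again, with differences between -0.62 and -0.47 and adjusted p between 0.0068 and 0.0431. Without XY- 30 the difference was -0.62, without XY- 12 it was -0.47, and without the 4 wide arrays it was -0.46. In whole liver RNA, fewer cells of a type and less RNA per cell cannot be told apart.

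Beta-globin signal differed in the same direction, and its difference did not pass the threshold. Among gonadal males, Hbb-b1 had log2 ratios of -0.21, 0.26, -0.69, -0.30 and -0.06 in XX Sry livers 38, 18, 9, 31 and 32. XY-Sry livers 19, 27, 20, 5 and 14 had -0.21, 0.12, -0.05, -0.27 and -0.29. Among gonadal females, XX livers 29, 6, 21, 35 and 2 had 0.12, -0.02, 0.28, 0.45 and 0.20, and XY- livers 12, 30, 24, 3 and 22 had 0.70, 0.18, 0.29, -0.31 and 0.71. The groups overlapped widely, because XX Sry 18 stood high among gonadal males and XY- 3 was the second lowest liver of all.

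Hbb-b1 averaged -0.17 ± 0.26 in gonadal males and 0.26 ± 0.31 in gonadal females (SD of log2 ratios, n = 10 each). Its difference was -0.43 ± 0.13 (SE), or 1.35-fold lower with an interval of 1.12-fold to 1.62-fold, and limma's adjusted p was 0.0659. Single animals decided this call: without XX Sry 18 the difference was -0.49 with an adjusted p of 0.0439, and without XY- 3 it was -0.51 with an adjusted p of 0.0172. Without XY- 30 it was -0.44 with an adjusted p of 0.0576. Without the 4 wide arrays it was -0.51 with an adjusted p of 0.0347. That of Hba-a1 was then -0.46, so the order of both globins by size reversed. Whether the difference is larger for Hba-a1 than for Hbb-b1 was not tested. The probe named Hbb-b2, the second adult beta-globin gene of other strains, gave nearly the same values, with a difference of -0.40 and an adjusted p of 0.0937.

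Alas2 showed no detectable difference between gonadal types. Its log2 ratios were -0.02, 0.04, 0.02, -0.24 and 0.08 in XX Sry livers 38, 18, 9, 31 and 32 and -0.10, -0.04, -0.13, 0.24 and 0.02 in XY-Sry livers 19, 27, 20, 5 and 14. Among gonadal females it had -0.01, -0.11, -0.01, 0.17 and 0.12 in XX livers 29, 6, 21, 35 and 2 and 0.15, 0.05, -0.16, -0.08 and 0.08 in XY- livers 12, 30, 24, 3 and 22. All 4 groups lay over each other around the pool's value.

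Alas2 averaged -0.01 ± 0.13 in gonadal males and 0.02 ± 0.11 in gonadal females (SD of log2 ratios, n = 10 each). The difference of -0.03 ± 0.06 (SE) had a 95% confidence interval of -0.15 to 0.09 on the log2 scale and an adjusted p of 0.859. That interval does not reach the estimates for Hba-a1 or Hbb-b1. Without XY- 30 the Alas2 difference was -0.03 (adjusted p from limma 0.878).

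**Figure D1:**
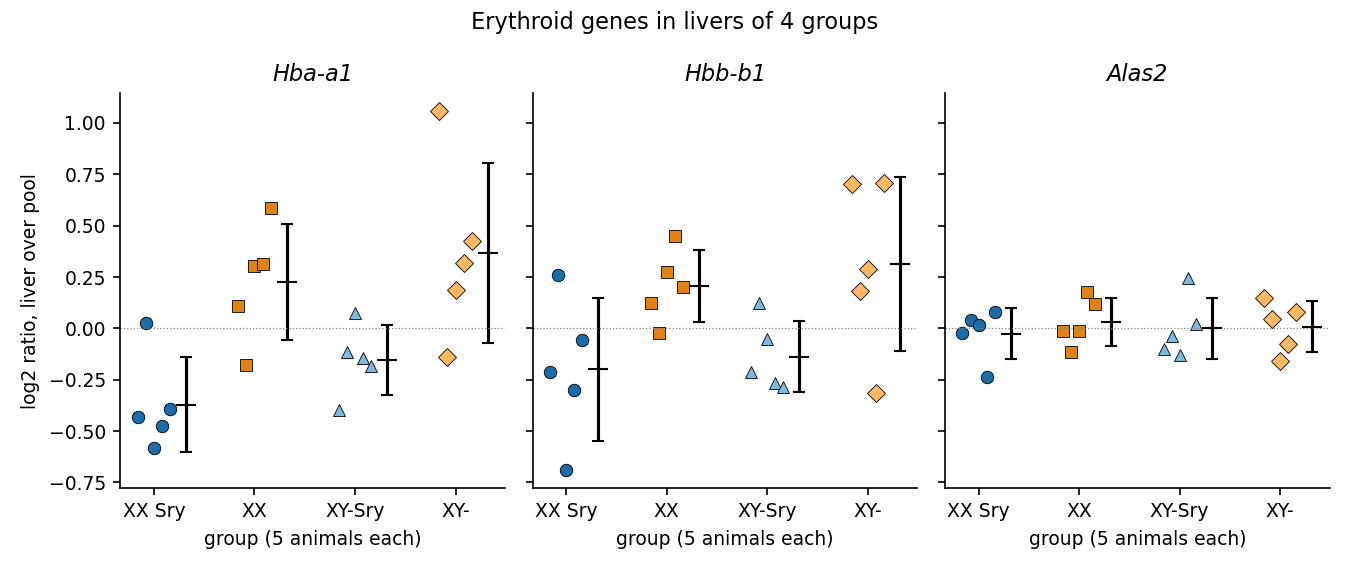
Log2 ratio of liver over pool (y axis, dimensionless) of Hba-a1, Hbb-b1 and Alas2 in the 4 groups of 5 animals (x axis). Each point is 1 liver, and the bar beside it is the group mean with 1 SD. XX Sry and XY-Sry livers average below XX and XY- livers for both globins, while Alas2 stays between -0.24 and 0.24 everywhere.

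The gonadal difference was then set out on each sex chromosome background. Hba-a1 averaged -0.37 ± 0.23 in XX Sry livers and 0.23 ± 0.28 in XX livers, and it averaged -0.15 ± 0.17 in XY-Sry livers and 0.37 ± 0.44 in XY- livers (SD, n = 5 each). Hba-a1 differed by -0.60 ± 0.18 between XX Sry and XX livers and by -0.52 ± 0.18 between XY-Sry and XY- livers (log2, SE). Adjusted p from limma was 0.140 in the XX pair and 0.333 in the XY pair. Hbb-b1 differed by -0.40 ± 0.18 in the XX pair (adjusted p from limma 0.368) and by -0.45 ± 0.18 in the XY pair (0.427), and Alas2 differed by -0.06 ± 0.08 and by -0.01 ± 0.08. Without XY- 30, XY- livers averaged 0.50 ± 0.39 for Hba-a1 (SD, n = 4). The XY pair then differed by -0.65 ± 0.17 for Hba-a1, by -0.48 ± 0.19 for Hbb-b1 and by 0.0013 ± 0.089 for Alas2 (log2, SE). In that fit limma called 0 of 3 members and 23 of 21556 features. None of the 3 members was called in either pair with all 20 arrays, where 0.645% and 0.158% of features were, while Hba-a1 and Hbb-b1 had unadjusted p under 0.05 in both, as did 12.1% of features in the XX pair and 9.29% in the XY pair. The spread is shared by all groups. Hba-a1 passed in the XX pair when XY- 12 was left out of the fit (adjusted p from limma 0.0300), where 462 of 21556 features passed. It also passed without the 4 wide arrays (0.0475), where 273 features did. When only the 10 arrays of the XX pair were fitted, Hba-a1 did not pass (adjusted p from limma 0.0755), while 385 features did.

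Ordered by mean Hba-a1 ratio, the groups ran XY-, XX, XY-Sry and XX Sry, and Hbb-b1 gave the same order. Neighbours within a gonadal type did not differ past limma's threshold for either globin. No contrast between XX and XY-Sry livers was fitted.

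Sex chromosome complement made no detectable difference to the members. XX minus XY livers, over both gonadal types, differed by -0.18 ± 0.13 (SE) for Hba-a1, by -0.08 ± 0.13 for Hbb-b1 and by -0.0018 ± 0.058 for Alas2, an X-linked gene, on the log2 scale. Adjusted p from limma was 0.924, 0.947 and 0.998 for these genes, and 0 of 3 had an unadjusted p under 0.05. Over all features, 0.0278% were called and 5.06% had an unadjusted p under 0.05. Without XY- 30 the differences were -0.24 for Hba-a1, -0.10 for Hbb-b1 and 0.0031 for Alas2, and 0 of 3 were called against 0.0603% of features. The 95% confidence interval of the Hba-a1 difference over all 20 livers ran from -0.44 to 0.08, which leaves room for Hba-a1 to be up to 1.36-fold lower in XX livers.

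Within gonadal males, XX Sry minus XY-Sry livers differed by -0.22 ± 0.18 for Hba-a1, by -0.06 ± 0.18 for Hbb-b1 and by -0.03 ± 0.08 for Alas2 (log2, SE). Within gonadal females, XX minus XY- livers differed by -0.14 ± 0.18 for Hba-a1, by -0.11 ± 0.18 for Hbb-b1 and by 0.02 ± 0.08 for Alas2. Without XY- 30 these were -0.27 ± 0.17, -0.14 ± 0.19 and 0.03 ± 0.09, and without XY- 12 the Hba-a1 difference was 0.03 ± 0.15, so single XY- livers set its size and sign. The interaction term, which asks whether the gonadal difference depends on sex chromosomes, was -0.08 ± 0.25 for Hba-a1, 0.05 ± 0.25 for Hbb-b1 and -0.05 ± 0.12 for Alas2, and without XY- 30 it was 0.05 ± 0.23, 0.08 ± 0.27 and -0.06 ± 0.12 for the same genes. With all 20 arrays its adjusted p from limma was 0.9995 for each, no member had an unadjusted p under 0.05, and 0 of 21556 features were called, while 2.58% had an unadjusted p under 0.05.

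Globin signal varied between animals more than that of most genes, while Alas2 varied less than the middle gene. The SD over 20 livers was 0.41 for Hba-a1, 0.36 for Hbb-b1 and 0.12 for Alas2 on the log2 scale, at the 93.5th, 90.4th and 30.7th percentile of all features. Those SDs include the differences between groups. Within groups the SD was 0.30 for Hba-a1 and 0.30 for Hbb-b1, against 0.13 for Alas2 and a median of 0.15 over all features. The within-group SDs stood at the 86.4th, 86.6th and 37.4th percentile for Hba-a1, Hbb-b1 and Alas2. The highest liver stood 3.11-fold above the lowest for Hba-a1 (XY- 12 over XX Sry 9), 2.63-fold for Hbb-b1 (XY- 22 over XX Sry 9) and 1.39-fold for Alas2 (XY-Sry 5 over XX Sry 31). XY- livers were the most variable group for both globins, with SDs of 0.44 and 0.42 (0.39 and 0.48 without XY- 30), whereas XY-Sry livers had 0.17 for each. The XY- group holds the wide arrays XY- 12 and XY- 3, and the XY-Sry arrays were not wide. The part of array spread in this difference was not tested.

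Both globins went up and down together from liver to liver. Over 20 livers, Hba-a1 and Hbb-b1 correlated with Pearson's r of 0.78 (permutation p 5e-05, adjusted over 3 pairs 1.5e-04) and Spearman's rho of 0.73 (permutation p 4.3e-04, adjusted 0.00129). As deviations from the group means, r was 0.60 (permutation p 0.0054, adjusted 0.0162) and rho 0.74 (permutation p 2.9e-04, adjusted 8.7e-04). Without XY- 12 and XX 2, the livers farthest from the median of Hba-a1, r was 0.74. Within gonadal males r was 0.72 (permutation p 0.0143, adjusted 0.0428), and within gonadal females it was 0.56 (permutation p 0.0894, adjusted 0.0894). XY- 3 had Hba-a1 above the pool at 0.32 and Hbb-b1 below it at -0.31. It was among the 4 wide arrays, without which r was 0.88.

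The correlations of Alas2 with the globins over 20 livers did not pass. Alas2 had r of 0.37 with Hba-a1 (rho 0.35, permutation p 0.104 for r and 0.132 for rho) and 0.33 with Hbb-b1 (rho 0.35, permutation p 0.151 for r and 0.129 for rho). Both had an adjusted Pearson p of 0.151. As deviations from the group means, r was 0.41 with Hba-a1 (adjusted permutation p 0.108) and 0.33 with Hbb-b1 (adjusted 0.159), and neither passed. Only rho with Hba-a1 passed among these, at 0.50 with an adjusted permutation p of 0.0368. In gonadal males alone, Alas2 had r of 0.18 with Hba-a1 and 0.0040 with Hbb-b1, and in gonadal females alone 0.58 and 0.63 (adjusted permutation p 0.958 and 0.992 in gonadal males and 0.0894 for both in gonadal females). Whether r differs between gonadal types was not tested.

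**Figure D2:**
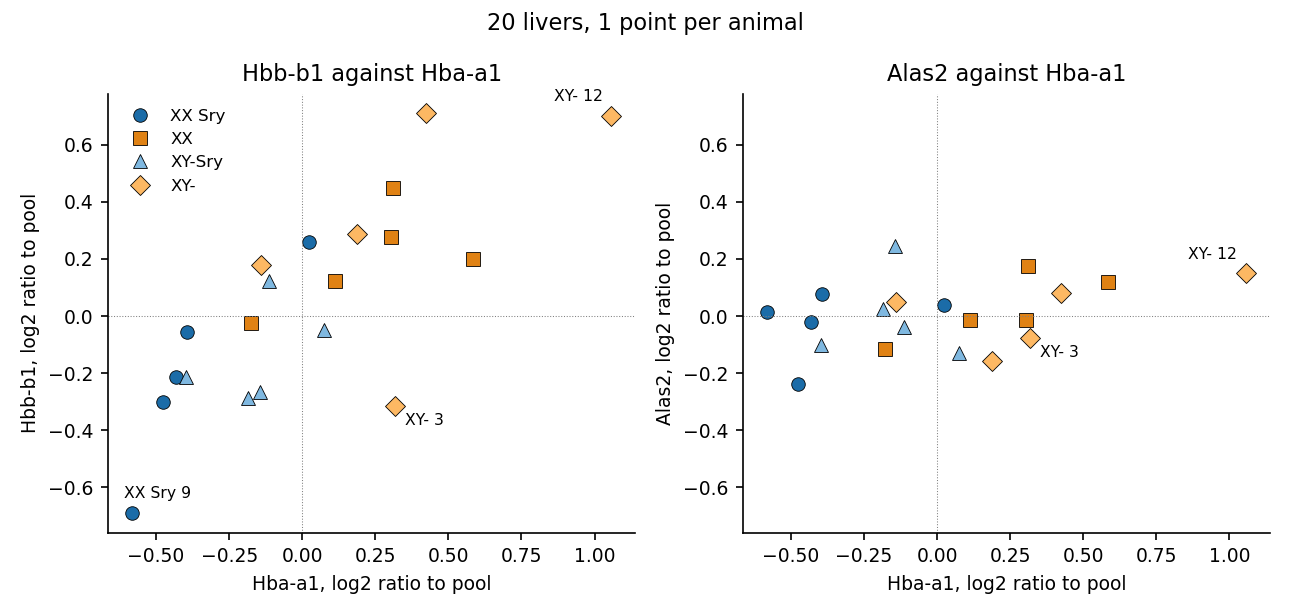
Log2 ratio of Hba-a1 (x axis) against that of Hbb-b1 (left y axis) and of Alas2 (right y axis), 1 point per liver, with groups by colour and shape and selected livers named. Hbb-b1 climbs with Hba-a1 (r = 0.78, n = 20), with XY- 3 off the trend, and Alas2 stays in a narrow band (r = 0.37).

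Named genes whose ratios were most like the mean of both globins over 20 livers were Trp53rkb (r = 0.97), Cnot7 (0.95) and the probe named Hbb-b2 (0.92). These were the only 3 of the other 11644 named genes with r over 0.9, and 0 of 9909 unnamed probes reached it. Next came Psd4 (0.87), Gpr18 (0.85), Flna (0.84), Srgn (0.83), Psme1 (0.82), Traf1 (0.82) and Relb (0.82). Trp53rkb and Cnot7 kept r of 0.95 and 0.94 as deviations from the group means. The most opposite genes were Zfhx4 (-0.83), Slc43a1 (-0.82), Adk (-0.79), Nefl (-0.79) and Cldn18 (-0.79). Genes most like Alas2 reached only 0.73 (Psg22), 0.67 (Trpc4) and 0.67 (Pla2g4c). Points shared their arrays and the pool, and these are descriptions with no test.

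Other genes of the red cell program were taken by function. Of the globin list, 4 of 11 genes were measured, and 1 was called lower in gonadal males (Hba-a1), against 2.28% of all features. These were Hba-a1, Hbb-b1, the probe named Hbb-b2 and Hbb-y. The median difference was -0.42, against 0.0075 over all features. It largely repeats the members, because the Hbb-b2 probe gave nearly the values of Hbb-b1, and Hbb-y alone differed the other way (0.06). Hbb-y, the embryonic beta-like globin, did not pass, with 0.05 ± 0.18 in gonadal males and -0.01 ± 0.12 in gonadal females (SD of log2 ratios, n = 10 each).

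Heme synthesis had 6 of 9 enzymes measured, with a median difference of -0.08 and 1 call, against 3.75% of all features called. An unadjusted p under 0.05 was reached by 3 of these enzymes, all lower, and by 17.8% of all features. Alad, the enzyme that joins 5-aminolevulinate into porphobilinogen, was lower in gonadal males, at -0.18 ± 0.10 against 0.23 ± 0.19 in gonadal females (SD, n = 10 each). That is a difference of -0.41 ± 0.07 (SE), or 1.33-fold lower, with an adjusted p from limma of 0.00345, and it passed in all 20 fits that left out 1 animal. Alas1, the form of the first enzyme that hepatocytes use, had -0.28 ± 0.40 in gonadal males and 0.24 ± 0.35 in gonadal females, a difference of -0.52 ± 0.16 (SE) that did not pass (adjusted p from limma 0.0864). Alad works in the hepatocyte's as well as in the red cell's heme pathway, and liver heme goes largely into proteins such as cytochromes P450. The later enzymes Ppox, Uros and Cpox did not pass, with differences of -0.12, 0.15 and 0.17.

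Enzymes abundant in red cells and genes of their maturation had 12 of 16 members measured, 1 of them called, and a median difference of -0.10. At an unadjusted p under 0.05 there were 5 lower and 1 higher. Over all features, 3.75% were called and 17.8% had an unadjusted p under 0.05. Prdx2, a peroxiredoxin abundant in red cells, was lower in gonadal males, at -0.08 ± 0.14 against 0.11 ± 0.06 in gonadal females (SD, n = 10 each), 1.14-fold lower with an adjusted p from limma of 0.0463. Prdx2 passed in 6 of 20 fits that left out 1 animal, and without the 4 wide arrays its adjusted p was 0.170. Car1, carbonic anhydrase of red cells, had -0.26 ± 0.43 in gonadal males and 0.31 ± 0.43 in gonadal females, a difference of -0.57 ± 0.18 (SE) that did not pass (adjusted p from limma 0.0778). Blvrb, biliverdin reductase B, differed by -0.29 ± 0.11 (SE, adjusted p from limma 0.184), and the ubiquitin ligase Mkrn1 by -0.14 ± 0.06 (0.174).

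None of 15 measured membrane and skeleton genes, of 20 listed, was called by limma. An unadjusted p under 0.05 was found for 2, both lower, against 17.8% of all features in either direction. The median difference was -0.01. Slc4a1, the anion exchanger band 3, differed by 0.02 ± 0.05 (SE), with an adjusted p from limma of 0.887. Cd47, which shields red cells from macrophages, differed by -0.22 ± 0.09 (SE), and Rhag, a partner of the Rh antigens, by 0.09 ± 0.07. The water channel Aqp1, which bile duct cells also express, differed by -0.41 ± 0.16 (SE, adjusted p from limma 0.159).

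None of 16 measured genes of erythroid transcription and erythropoietin signalling, of 17 listed, was called by limma, and the median difference was -0.04. Below an unadjusted p of 0.05 there were 5 genes, all lower, against 17.8% of all features in either direction. Gata1 differed by -0.03 ± 0.04 (SE), and Klf1, the adult beta-globin activator, by 0.11 ± 0.12. Epor, the erythropoietin receptor, differed by -0.22 ± 0.08 (adjusted p from limma 0.139), and Nfe2, a factor of the erythroid and megakaryocyte lines, by -0.48 ± 0.19 (0.180). Kit, the stem cell factor receptor of early precursors, differed by -0.17 ± 0.06 (0.113), and Tal1, a partner of GATA1, by -0.16 ± 0.06 (0.157).

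Iron supply had 19 of 23 genes measured and 0 called by limma, with a median difference of -0.02. Of these genes, 5 had an unadjusted p under 0.05, against 17.8% of all features. Tfrc, the transferrin receptor of iron-hungry erythroid precursors, had 0.04 ± 0.08 in gonadal males and -0.03 ± 0.09 in gonadal females. Slc25a37, which brings iron into mitochondria, differed by -0.22 ± 0.08 (SE, adjusted p from limma 0.153). Tmprss6, a liver protease that restrains the iron hormone hepcidin, differed by -0.35 ± 0.12 (adjusted p from limma 0.124). For sex chromosome complement and for the interaction, 0 members of the 5 red cell lists or of the iron list passed limma's test. At an unadjusted p under 0.05 there were 2 and 1 genes, against 5.06% and 2.58% of all features.

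**Figure D3:**
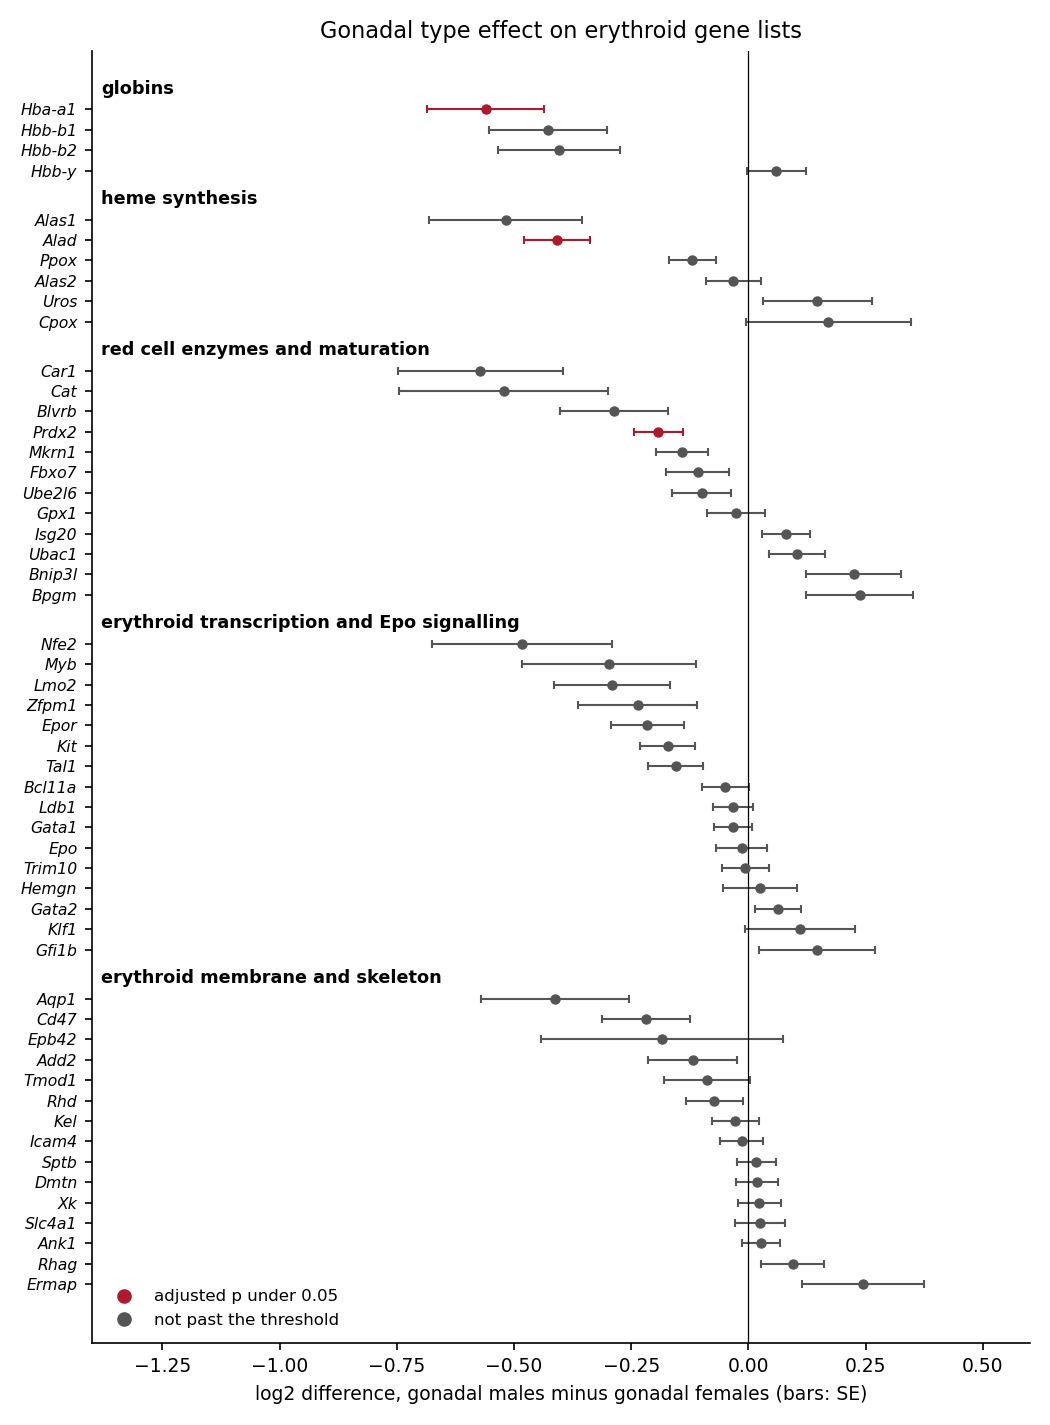
Log2 difference, gonadal males minus gonadal females (x axis), with 1 SE, for each measured gene of 5 red cell lists (y axis). Red points passed an adjusted p of 0.05: Hba-a1, Alad and Prdx2, all lower in gonadal males, while genes of the membrane list scatter around 0.

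Some markers of other cells of blood and liver were also called lower in gonadal males, where 2.28% of all features were. T cell genes, 10 of 12 measured, had 4 called lower in gonadal males, namely Cd3g (2.16-fold), Cd2 (2.73-fold), Cd3d (1.38-fold) and Cd8a (1.13-fold). The mean of all 10, the called genes included, lay between -0.24 and -0.08 in gonadal males and between 0.04 and 0.51 in gonadal females. The 4 called genes were called on these same arrays, so part of this gap is given by them. How many single features separate the gonadal types in this way was not counted. Kupffer cell and macrophage genes, 15 of 16 measured, had 6 called lower (C1qa, C1qb, C1qc, Clec4f, Csf1r and Cd5l), with a mean between -0.81 and 0.40 in gonadal males and between -0.21 and 1.45 in gonadal females. B cell genes, 7 of 13 measured, had 2 called lower, Cd22 and Cd79b, with a mean between -0.25 and 0.03 in gonadal males and between -0.02 and 0.31 in gonadal females. Of these 12 calls, Cd8a passed in 5 and C1qa in 7 of the 20 fits that left out 1 animal, and the other 10 passed in each.

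Neutrophil genes (16 of 19 measured) and platelet genes (11 of 17 measured) had 0 calls by limma, with 7 and 1 genes at an unadjusted p under 0.05, all lower, against 17.8% of all features in either direction. Neutrophil means lay between -0.94 and -0.72 in gonadal males and between -0.80 and 1.63 in gonadal females, and platelet means between -0.12 and 0.07 in gonadal males and between -0.07 and 0.48 in gonadal females. XY- 12, the liver with the highest Hba-a1, was also the highest for the means of the T cell, B cell, macrophage, neutrophil, platelet and membrane lists. The part of these cells in the globin difference was not tested, and a log ratio does not show whether any of their markers is absent.

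Over 20 livers, Hba-a1 correlated with the means of 5 lists of blood and liver cells, with r between 0.64 (erythroid membrane and skeleton; Kupffer cells) and 0.80 (B cells). All 5 passed with adjusted permutation p between 6e-04 and 0.00522 over 12 relations, although rho for platelets, 0.44, did not (adjusted 0.0634). The relations were picked after values had been seen. T cell means fell into separate ranges by gonadal type, so their relation is given within groups only. Without XY- 12 and XX 2, r lay between 0.24 for platelets and 0.67 for B cells. As deviations from the group means, r over all 6 lists lay between 0.33 and 0.58 and none passed (adjusted permutation p 0.0874 to 0.249), and rho lay between 0.04 and 0.42. In gonadal males alone r lay between -0.41 and 0.37, and in gonadal females alone between 0.55 and 0.80. Hbb-b1 gave r between 0.28 and 0.69 with the same 5 lists, and none of its 6 relations passed as deviations from the group means.

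**Figure D4:**
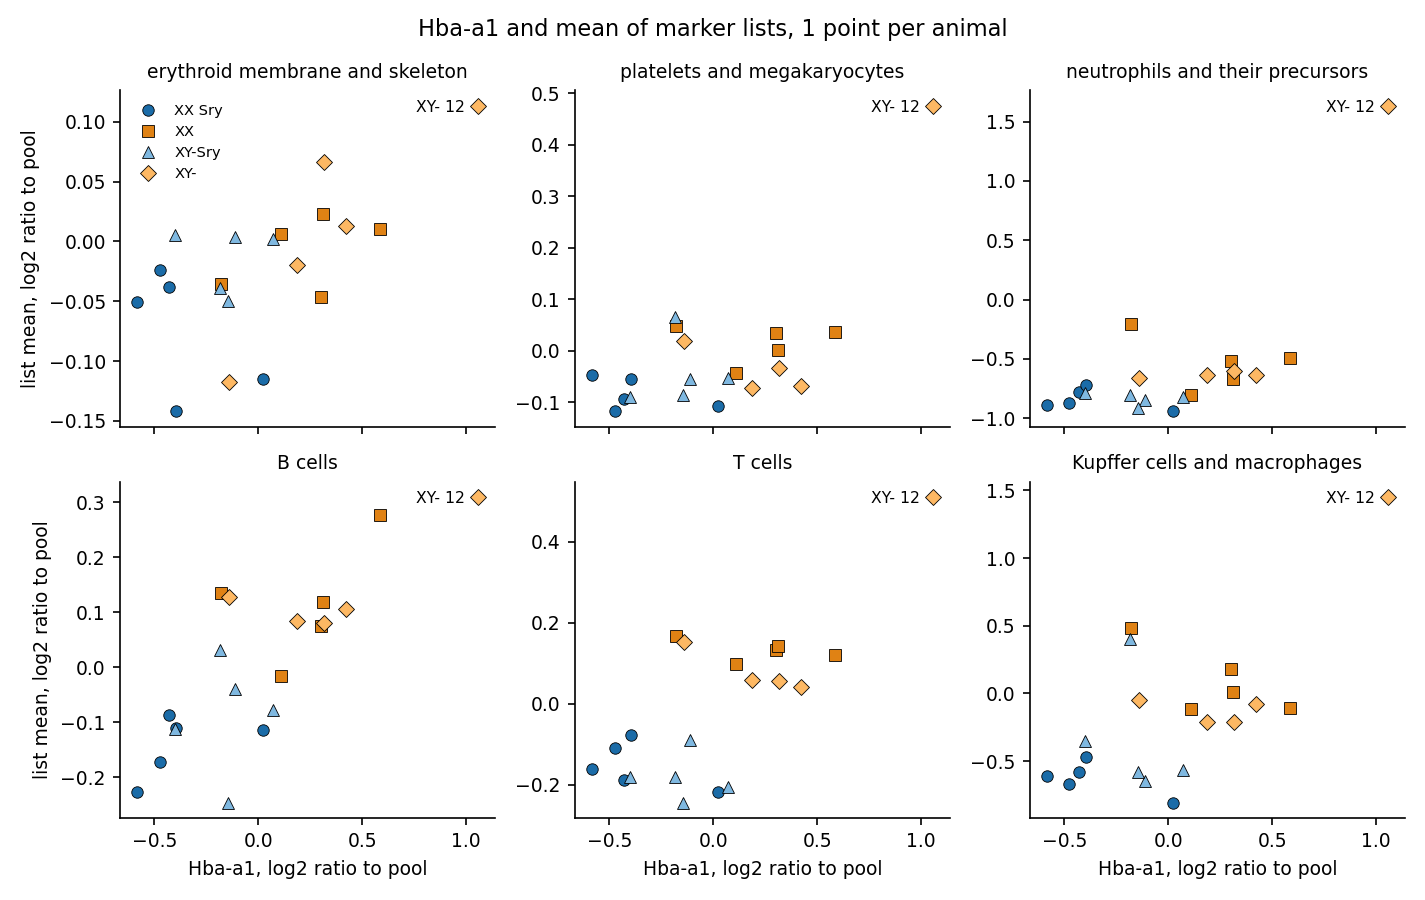
Log2 ratio of Hba-a1 (x axis) against the mean log2 ratio of 6 marker lists (y axes, own scale in each panel), 1 point per liver, groups by colour and shape. XY- 12 stands at the upper right of each panel. The T cell mean includes genes called lower in gonadal males on these same arrays. It lies at -0.24 to -0.08 in XX Sry and XY-Sry livers and at 0.04 to 0.51 in XX and XY- livers.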

How the data were processed

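RNA of 20 livers (Cy5) and a common liver pool (Cy3) was hybridised on 2-colour arrays, per the labels, which describe the pool as liver of 17 mice, while the design text describes shares of every sample. The scanner, background correction and dye normalization are not given in the sources used here. For 23574 probes the authors deposited log ratios, read here as log10, with sizes limited at 2 (29 values) and 2 missing. Labels and headers state neither their base nor their direction. Base and direction (liver over pool) were read from the values: in base 10 Eif2s3y stood 1.74-fold above the pool in 9 XY livers, against 1.18-fold in base 2 and 1.27-fold in base e. The descriptions of the pool differ, so its share of XY liver, which sets the ratio to expect, is not certain. Array medians lay between -0.0107 and 0.0155 in log10. The number of arrays limits the precision.

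Values were converted to log2. The platform annotation listed 13713 probes, of which 12662 took their symbol from an Entrez ID and 4 from an accession in the mouse RefSeq table (GRCm38.p6), 999 kept the platform's symbol and 48 named several genes; 9861 were not listed. Probes of 1 gene were averaged (1312 features), giving 21556 features, with no filter. limma 3.58.1 in R 4.3.3 fitted 4 group means over 20 arrays, and the moderated p-values of all features went through the Benjamini-Hochberg adjustment, with calls under 0.05. The script was tested on simulated data. Gonadal type and sex chromosome effects average over the other factor. Correlations used 100000 permutations, two-sided, in SciPy 1.17.1.

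Members, lists and tests were chosen with earlier results of these data known. Named genes were the members, from each list the called genes and up to 4 with the smallest p for gonadal type, Gata1, Klf1, Epor, Slc4a1, Tfrc, Alas1, Hp, Hpx and Hmox1 for their role, the 10 genes most alike to the globin mean, the 5 least alike and the 3 most alike to Alas2. Alternatives left out each animal, the 4 wide arrays and the values at the limit, or changed the centring, quantile normalization, robust fit, array weights, probe averaging and the features adjusted over.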

Additional observations from a re-analysis of the deposited data

Results flagged for a closer look

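No member stood apart within its group by Dixon's criterion, for which the gap to the nearest liver must exceed 0.71 of the range of 5 livers. The largest gaps were those of Hba-a1 in XX Sry 18 (0.69 of the range) and of Alas2 in XX Sry 31 (0.68). Among 252 sets of 1 gene in 1 group (63 genes), 29 held a liver that stood apart, or 11.5%, where chance gives about 1 in 20.

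XY- 12, the liver with the highest Hba-a1, stood apart from the other XY- livers on the high side for 15 genes (log2 ratios). Macrophage genes there were C1qa at 2.09, C1qb at 1.24, C1qc at 1.83, Clec4f at 1.36, Csf1r at 1.96 and Spic at 1.91. Neutrophil genes were Ngp at 3.63, S100a9 at 3.55 and Csf3r at 0.46. Platelet genes were Pf4 at 1.06, Ppbp at 1.60 and Clec1b at 1.32, and the others were the T cell gene Cd2 at 1.87 and the red cell genes Cd47 at 0.70 and Mkrn1 at 0.24. Hba-a1 in that liver was 1.06, and its gonadal difference without it was -0.47 with an adjusted p from limma of 0.0129.

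XX 6, a wide array whose Hba-a1 lay among the gonadal males, stood apart for Cd2 at 0.83, Cdc20 at 0.12, Csf3r at 0.39 and Spic at 0.71. XY-Sry 14 stood apart for Cd5l at 0.71, Csf1r at 0.31 and Rhag at -0.19. The library labelled XY- 30 stood apart for Eif2s3y at -3.90, Kdm5d at -3.16, Eif2s3x at 0.51 and Tdo2 at 0.61. Single genes stood apart in XY-Sry 19 (Kit at -0.18), XX Sry 9 (Slc11a2 at 0.28) and XY-Sry 5 (Uros at 0.41).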

How the results depend on the processing

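Over both sex chromosome backgrounds, the Hba-a1 gonadal difference passed limma's threshold in each alternative run, between -0.62 and -0.47 without 1 animal. Reading the values as log2 scales it to -0.17 with the same p. Hbb-b1, at -0.43 and not called, passed without the 4 wide arrays (-0.51), with quantile normalization (-0.46) and with array weights (-0.48), and lay between -0.51 and -0.37 without 1 animal, passing without XX Sry 18 or XY- 3. Alas2 lay between -0.06 and -0.0055. The cause of these shifts was not tested. The Alas2 sex chromosome difference, -0.0018, changed sign without XY- 30 (0.0031), without the wide arrays (0.0167), with centred arrays (0.0032), quantile normalization (0.0020) and array weights (0.0155), and ran between -0.0224 and 0.0287 without 1 animal; for Hba-a1 it ran between -0.24 and -0.094 and for Hbb-b1 between -0.16 and -0.0233. That of Alas2 changed sign in 9 of 20 fits without 1 animal. The Hba-a1 interaction changed sign in 2 such fits, without XY- 30 (0.0517) and without XX 2 (0.0140). For Hbb-b1 the interaction did so in 4 fits and for Alas2 in 2. Without 1 animal the interaction ran between -0.25 and 0.0517 for Hba-a1, between -0.0683 and 0.20 for Hbb-b1 and between -0.0831 and 0.0139 for Alas2.

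For gonadal type 808 features were called, 1677 with array weights, 536 of named genes adjusted alone and between 391 and 1129 without 1 animal; the count fell by over 1.5 times without XX Sry 18 (479), XX Sry 31 (402), XY-Sry 19 (391), XY-Sry 27 (531) or XX 2 (491). For sex chromosomes 6 were called, 13 without XY- 30, 12 with array weights, between 2 and 13 without 1 animal and 0 by limma without the wide arrays (1372 at an unadjusted p under 0.05). For the interaction 0 were called without any 1 animal. SDs within groups ran between 0.23 and 0.31 for Hba-a1, 0.25 and 0.31 for Hbb-b1 and 0.11 and 0.13 for Alas2 without 1 animal, and were 1.05, 1.22 and 0.53 in units of each array's SD. No paired analysis was possible because all animal numbers differ between the groups. The deposited ratios carry no intensities, so whether a probe, that of Alas2 included, was dim or bright could not be told.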

Other observations

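Genes that clear hemoglobin and heme did not pass for gonadal type: 0 of 10 measured, of 13 listed, were called by limma. Their median difference was -0.03, and 5 had an unadjusted p under 0.05, against 17.8% of all features. Hp, which encodes the hemoglobin-binding plasma protein haptoglobin, had log2 ratios of 0.05 ± 0.14 in gonadal males and -0.02 ± 0.29 in gonadal females. Hpx, the heme carrier hemopexin, had -0.32 ± 0.43 in gonadal males and -0.01 ± 0.66 in gonadal females. Hmox1, the inducible heme oxygenase, was the most variable of the 3, with 0.28 ± 0.96 in gonadal males and -0.20 ± 1.28 in gonadal females (SD, n = 10 each).

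Of 15 proliferation genes measured, 2 were called for gonadal type, against 3.75% of all features. Rrm2, a ribonucleotide reductase subunit, was higher in gonadal males, at 0.13 ± 0.22 against -0.29 ± 0.22 in gonadal females (SD, n = 10 each, adjusted p from limma 0.0251), and passed in 17 of 20 fits that left out 1 animal. Cdc20, a mitotic activator of protein degradation, was lower, at -0.10 ± 0.06 against 0.06 ± 0.11 in gonadal females (adjusted p from limma 0.0364), and passed in 9 of 20 such fits. Hepatocyte genes had 0 of 12 called by limma and a median difference of 0.01, against 0.0075 over all features. For 2 of them the unadjusted p was under 0.05, against 17.8% of all features.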
